A study of Homo sapiens with 24 samples.

Results

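The genes described here are 27 genes that carry a LINC symbol, a name given to intergenic non-coding transcripts. Some have other names today, and GENCODE release 29 lists the most abundant, LINC00493, as protein-coding SMIM26. They were chosen by their counts. Of 143 genes named LINC and a number among the 60658 genes of the tables, those that averaged at least 10 counts over the 24 libraries were kept. LINC00632, which lies at the targeted ciRS-7 locus, was left out. The other 115 genes lay under that mean, and 30 of them had 0 counts in every library. Because the mean count chose the genes, their levels are given as a description. The 3 genes just inside the limit were LINC00216 with a mean of 10.5 counts, LINC00471 with 12 and LINC00568 with 12.5. The 3 just outside it were LINC00473 with 7.92, LINC00854 with 7.25 and LINC00539 with 7.17.

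Long non-coding RNAs are transcribed by RNA polymerase II and are mostly capped, spliced and polyadenylated like messenger RNAs, but are on the whole less abundant and more restricted to particular tissues. Some act on chromatin or on neighbouring genes, some serve as precursors of microRNAs or small nucleolar RNAs, and a few turned out to encode small proteins. Many start beside the promoter of a coding gene and run in the opposite direction, so that a LINC symbol does not by itself place a gene far from other genes.

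The cells were labelled SH-SY5Y, a human neuroblastoma line, and were harvested 48 h after transfection. The circular RNA ciRS-7 (CDR1as) was depleted in 4 setups, and each knockdown (KD) was compared with its own non-targeting control (NTC), with 3 libraries per group. In the agoshRNA setup, KD and NTC cells received a vector for an Argonaute-processed short hairpin RNA. In the gRNA and pre-gRNA setups, both arms received a plasmid for the RNA-targeting nuclease CasRx with GFP and a plasmid for a mature or a precursor guide RNA. A synthetic guide was used in the syn-gRNA setup, and how it was delivered is not described in the labels. The libraries were made from poly(A) RNA without strand information, and their columns carry the letters A to C. Nothing says whether the libraries of a group came from separate cultures, so p-values measure only the spread between them, which may be technical.

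Total counts lay between 10994974 and 16233777 per library. The labelled cell type was checked against marker genes. Of the noradrenergic neuroblastoma markers, PHOX2A, STMN2 and ELAVL4 had mean levels of 0.09, 0.04 and 0.03 CPM (counts scaled to a common library total), which is at or near absence, while GATA2 stood at 35.65 CPM and HAND1 at 21.43 CPM. Of a list of 5 kidney-lineage genes, HOXA9, HOXA10, HOXA11 and PAX2 stood at 98.18, 85.05, 43.62 and 10.97 CPM, and PAX8 was near absence at 0.01 CPM. The levels below are therefore those of cells that carry the label SH-SY5Y and lack 3 of its 7 listed markers. Poly(A) selection leaves out most circular RNA, so the depletion of ciRS-7 itself was not measured here. The linear transcript LINC00632 of the same locus had 16 to 132 counts per library, with log2 fold changes between -0.24 and 0.22 and adjusted p = 1 in DESeq2 in each setup.

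The 27 LINC genes together took between 181.0 CPM in agoshRNA NTC B and 242.7 CPM in gRNA NTC A, with a median of 207.2 CPM. Their summed level thus differed by a ratio of 1.34 between the lowest and the highest library. A few genes carried most of it: the 3 most abundant held 51.0% of the counts of the 27 genes, and the 8 most abundant held 81.5%. The median gene of the group had a mean of 29.9 counts, against 226.4 counts for the median of the 18154 genes that averaged at least 10, so 10 of the 27 genes had means under 20 counts.

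LINC00493 was the most abundant, at 44.83 CPM on average and 425 to 922 counts per library. It lies on chromosome 20 from 18547991 to 18550207 (hg19, plus strand), and GENCODE release 29 lists the same gene as protein-coding SMIM26, which encodes a small mitochondrial protein. Per kilobase of exon, it stood at 40.8 CPM. The next gene on that scale, LINC00334, stood at 6.90 CPM per kilobase. LINC00649, the next by CPM with 38.83 CPM, has 14335 exon bases and fell to 2.71 CPM per kilobase. LINC00205 followed with 22.63 CPM, LINC00338 with 16.53, LINC00294 with 13.92, LINC00467 with 12.42, LINC00334 with 12.18 and LINC00624 with 8.43 CPM. The other 19 genes had mean levels between 0.76 CPM for LINC00216 and 5.34 CPM for LINC01012. Neighbours in that order overlapped in their library values, as the plot of levels by library shows.

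LINC00467, known as a transcript that N-Myc represses in neuroblastoma, had group means between 10.87 ± 1.85 CPM (SD, n = 3) in syn-gRNA NTC and 14.22 ± 3.49 CPM in agoshRNA NTC. Its log2 fold changes of KD against NTC were -0.13 in agoshRNA, -0.14 in gRNA, 0.17 in pre-gRNA and -0.01 in syn-gRNA, each smaller than its SE. LINC00461, a brain transcript whose locus is known for a microRNA of the miR-9 family, was low, with 3 to 40 counts per library. Of 10 LINC genes known from neural cells or as microRNA hosts, 4 were present as rows and 3 passed the mean of 10 counts. Of 11 LINC symbols known to encode a microprotein, 2 were present as rows under that symbol. LINC00493 was the abundant one, and LINC00675 had at most 1 count in a library.

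The name intergenic was compared with the annotation. In GENCODE release 29, which matched 26 of the 27 genes, 17 were of type lincRNA, 4 were processed transcripts, 2 were antisense, and LINC00205, LINC00493 and LINC00338 had types of their own. LINC00338 is now SNHG20, a small nucleolar RNA host gene. In the coordinates of the tables, 10 of the 27 genes overlapped a protein-coding gene, 3 of them on the same strand. A further 4 (LINC00205, LINC00337, LINC00235 and LINC01126) started within 1 kb of a coding gene on the other strand and ran away from it, and 10 genes, by the GENCODE exons, had exon bases inside the exons of a coding neighbour. Because the libraries carry no strand, reads from a LINC gene and from an overlapping gene cannot be told apart.

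LINC00334 followed its overlapping neighbour in every library. It lies on chromosome 21 from 46654255 to 46684463 (hg19, plus strand) and overlaps the end of POFUT2, which encodes a protein O-fucosyltransferase and runs on the minus strand, with 17.6% of its exon bases inside POFUT2 exons. Its counts in the agoshRNA setup were 164, 137 and 320 in KD A, B and C and 161, 139 and 280 in NTC, and those of POFUT2 in the same libraries were 1039, 716 and 1852 and 926, 804 and 1686. Libraries with more POFUT2 had more LINC00334 in both arms. Over the 24 libraries the ratio of the counts stayed between 0.134 and 0.196. Its chi-square per degree of freedom was 0.77, where counting error alone gives values near 1. Pearson's r between their deviations from the group means, on the log2(CPM + 0.5) scale, was 0.99 over 24 libraries, which share their depth and composition between both genes.

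LINC00624, annotated antisense to the chromatin remodeller gene CHD1L, followed the same pattern. The ratio of its counts to those of CHD1L stayed between 0.077 and 0.111, with a chi-square per degree of freedom of 0.98 and r = 0.94, and 3.8% of its exon bases lie in CHD1L exons. The other 14 pairs of a LINC gene and a coding neighbour had values from 2.22 to 85.02, so their ratios moved by more than counting error. Among them, LINC00649 and ATP5O, a subunit of the mitochondrial ATP synthase, had a ratio of 0.177 to 0.258 and r = 0.92. LINC00294, a single-exon gene on chromosome 11 from 33097695 to 33101000, had r = 0.88 with TCP11L1, which it overlaps on the same strand without sharing exon bases. LINC00294 also overlaps CSTF3 on the other strand, with 8.0% of its exon bases in CSTF3 exons. For that pair the ratio ranged from 0.052 to 0.451 and r was 0.53. LINC00476, now called ERCC6L2-AS1, went the other way from the helicase gene ERCC6L2 (r = -0.43), with a ratio from 0.151 to 1.794.

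LINC00205 also lies beside POFUT2, at its other end. It starts on chromosome 21 at 46707965 on the plus strand, 152 bases from the start of POFUT2, and runs away from it. Its counts in the agoshRNA setup were 428, 228 and 92 in KD A, B and C and 490, 256 and 161 in NTC, so it was lowest in the libraries where POFUT2 was highest. The ratio of its counts to those of POFUT2 ranged from 0.050 to 0.669, r was -0.65 over the 24 libraries, and no exon bases are shared. LINC00205 and LINC00334, which lie at either end of POFUT2, had r = -0.65 with each other.

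**Figure D1:**
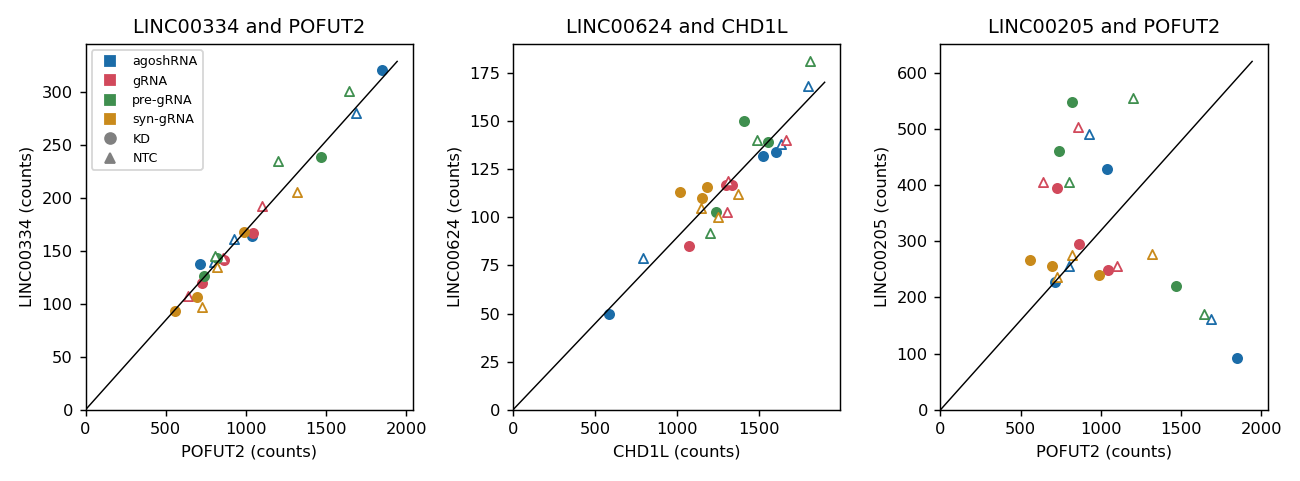
Counts of a LINC gene against those of its coding neighbour in the 24 libraries, coloured by setup, with filled circles for KD and open triangles for NTC. Each black line is the ratio of summed counts. LINC00334 and LINC00624 lie on their lines within counting error (0.77 and 0.98 chi-square per degree of freedom), and LINC00205 does not (85.02).

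The start regions are shown because LINC00205 and LINC00337 share theirs with a coding gene. RefSeq (GRCh38.p14) held a promoter, from 250 bases before the start to 50 after it, for 21 of the 27 genes. The windows of 6 of them shared bases with a window on the other strand. For LINC00205 (chr21:45287802-45288101, plus strand), 256 of 300 bases lie also in the window of POFUT2. For LINC00337, now ICMT-DT (chr1:6235990-6236289, plus strand), 225 bases lie also in that of ICMT, the methyltransferase of prenylated proteins. LINC00294 (chr11:33075900-33076199, plus strand) is shown as a contrast, since its window is shared with no other. Capitals mark the GC box GGGCGG, the CCAAT box CCAAT and the TATA box TATAAA on either strand, where overlapping matches merge.
LINC00205: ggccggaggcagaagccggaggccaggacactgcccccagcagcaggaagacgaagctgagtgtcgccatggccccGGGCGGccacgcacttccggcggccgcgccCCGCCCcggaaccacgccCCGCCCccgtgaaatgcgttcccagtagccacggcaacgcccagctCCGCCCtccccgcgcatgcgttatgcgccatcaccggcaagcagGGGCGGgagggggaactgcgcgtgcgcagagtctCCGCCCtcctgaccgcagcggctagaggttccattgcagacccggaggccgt
LINC00337: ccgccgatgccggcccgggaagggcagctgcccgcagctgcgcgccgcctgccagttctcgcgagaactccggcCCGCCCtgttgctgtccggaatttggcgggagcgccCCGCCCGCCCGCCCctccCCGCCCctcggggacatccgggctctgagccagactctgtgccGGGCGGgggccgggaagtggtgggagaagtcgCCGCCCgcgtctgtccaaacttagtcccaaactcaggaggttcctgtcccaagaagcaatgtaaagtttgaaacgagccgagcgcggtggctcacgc
LINC00294: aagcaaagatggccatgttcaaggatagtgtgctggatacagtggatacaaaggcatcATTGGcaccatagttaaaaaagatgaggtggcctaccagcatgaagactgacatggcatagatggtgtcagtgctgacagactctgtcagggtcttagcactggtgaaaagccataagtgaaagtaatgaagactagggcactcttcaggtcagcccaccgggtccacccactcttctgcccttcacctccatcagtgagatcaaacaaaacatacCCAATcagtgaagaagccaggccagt

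The LINC00205 window had a GC content of 72.3%, 34 CpG dinucleotides and 6 GC boxes. That of LINC00337 had 69.7%, 33 and 7. The LINC00294 window had 48.0%, 1 CpG, no GC box and 2 CCAAT boxes. Over the 21 genes, 11 windows held a GC box, 10 a CCAAT box and 2 a TATA box, and over all 35116 promoters of the table the shares were 45.0%, 34.6% and 11.5%. Their median GC content was 61.0%, against 58.7% for all promoters. These matches describe letters in a window and not binding.

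LINC00472 spans the microRNA genes MIR30A and MIR30C2 on its own strand (chromosome 6 from 72054047 to 72130472, hg19, minus strand). The mature microRNAs are shown because the transcript with the widest spread described below is annotated over them. Capitals mark the seed, bases 2 to 8, which both share. Their levels were not measured in these poly(A) libraries.
hsa-miR-30a-5p: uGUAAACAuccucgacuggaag
hsa-miR-30c-5p: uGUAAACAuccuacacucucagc

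The first comparison asked whether any LINC gene differed between KD and NTC within a setup. No LINC gene was called in any setup. Of the 27 genes, 22, 26, 27 and 25 passed the count filter in the setups taken in the order agoshRNA, gRNA, pre-gRNA, syn-gRNA, and 0 had an adjusted p-value under 0.05 in DESeq2. Over all genes tested the share called was 0% in each setup. At an unadjusted p under 0.05 the number of LINC genes was also 0 in each setup, and over all genes the shares were 0%, 0.0925%, 0.0107% and 0.297%. edgeR and limma-voom called 0 LINC genes as well. None of these fits pairs the letters, although KD and NTC libraries of the same letter deviated together (r of 0.31 to 0.96 across genes). The spread between letters therefore enters their standard errors, and small effects could be missed. A fit with the letter as a block, described further below, also called 0 LINC genes. In the authors' deposited table the adjusted p-value of each of the 27 genes was 1 in each setup, and the smallest unadjusted p-value was 0.111.

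The median log2 fold change of the LINC genes was 0.01, 0.10, 0.04 and -0.01 in the 4 setups, in the same order, and that of all genes tested was 0.06, 0.02, 0.01 and 0.00. Of the LINC genes tested, 11, 17, 15 and 11 were higher in KD. The median standard error was 0.60, 0.50, 0.55 and 0.34 for the LINC genes and 0.53, 0.43, 0.49 and 0.20 for all genes. The syn-gRNA setup therefore gave the narrowest estimates and agoshRNA the widest.

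In the agoshRNA setup the highest log2 fold changes belonged to LINC00337 and LINC01144, a single-exon gene overlapping ZSWIM5 on the other strand. LINC00337 had 3.06, 1.15 and 1.63 CPM in KD A, B and C and 2.13, 0.72 and 1.38 CPM in NTC. KD lay above NTC in each letter, but the groups overlapped, and the log2 fold change was 0.50 (SE 0.59, adjusted p = 1 in DESeq2). LINC01144 had 3.21, 0.79 and 0.77 CPM in KD and 2.13, 0.92 and 0.32 CPM in NTC, and its log2 fold change of 0.50 (SE 0.82) became -0.36 without KD A. The lowest values were those of LINC00999 at -0.80 (SE 0.75) and LINC00294 at -0.33 (SE 0.39). LINC00294 had 15.01, 9.99 and 10.45 CPM in KD and 19.53, 9.40 and 17.04 CPM in NTC.

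In the gRNA setup the highest was LINC00242, with 2.16, 1.5 and 0.72 CPM in KD and 1.10, 0.83 and 0.59 CPM in NTC. KD was above NTC in each letter, the groups overlapped, and the log2 fold change of 0.92 (SE 0.61, adjusted p = 1 in DESeq2, exact permutation p = 0.3) was the largest in size of all 4 setups. LINC01144 followed with 0.69 (SE 0.53). The lowest were LINC01597 at -0.44 (SE 0.56) and LINC01002 at -0.37 (SE 0.44). LINC01002 had 1.34, 1.87 and 2.31 CPM in KD and 2.68, 2.12 and 2.81 CPM in NTC, lower in KD in each letter and overlapping.

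In the pre-gRNA setup the range was narrower, from -0.40 to 0.49. LINC00472 had the highest value, 0.49 (SE 0.63), with 2.76, 1.37 and 4.69 CPM in KD and 2.28, 0.56 and 3.47 CPM in NTC. It was higher in KD in each letter, while both arms were lowest in B and highest in C. LINC00471 followed at 0.44 (SE 0.65). LINC00334 and LINC00568, now FALEC, had the lowest value, -0.40 (SE 0.53 and 0.61). For LINC00334 the levels were 9.39, 15.54 and 8.10 CPM in KD and 14.48, 18.85 and 9.31 CPM in NTC, and without NTC B the value was 0.07.

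In the syn-gRNA setup 2 LINC genes had every KD library above every NTC library. LINC00216, a single-exon gene inside an intron of C14orf37 on the other strand, had 2.11, 1.74 and 1.91 CPM in KD and 1.01, 1.12 and 1.71 CPM in NTC, with a log2 fold change of 0.57 (SE 0.43, adjusted p = 1 in DESeq2). LINC00624 had 8.29, 9.15 and 10.28 CPM in KD and 6.71, 7.86 and 7.37 CPM in NTC, with 0.33 (SE 0.22, adjusted p = 1 in DESeq2). The exact two-sided permutation p-value was 0.1 for both, the smallest that 3 against 3 libraries allow. LINC01232 followed LINC00216 in size at 0.48 (SE 0.47), and the lowest were LINC00235 at -0.32 (SE 0.69) and LINC00242 at -0.23 (SE 0.66). The number of LINC genes whose groups did not overlap was 2 here and 0 in each of the other setups, and over all genes tested the shares were 0.87% in agoshRNA, 2.3% in gRNA, 1.13% in pre-gRNA and 4.88% in syn-gRNA.

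**Figure D2:**
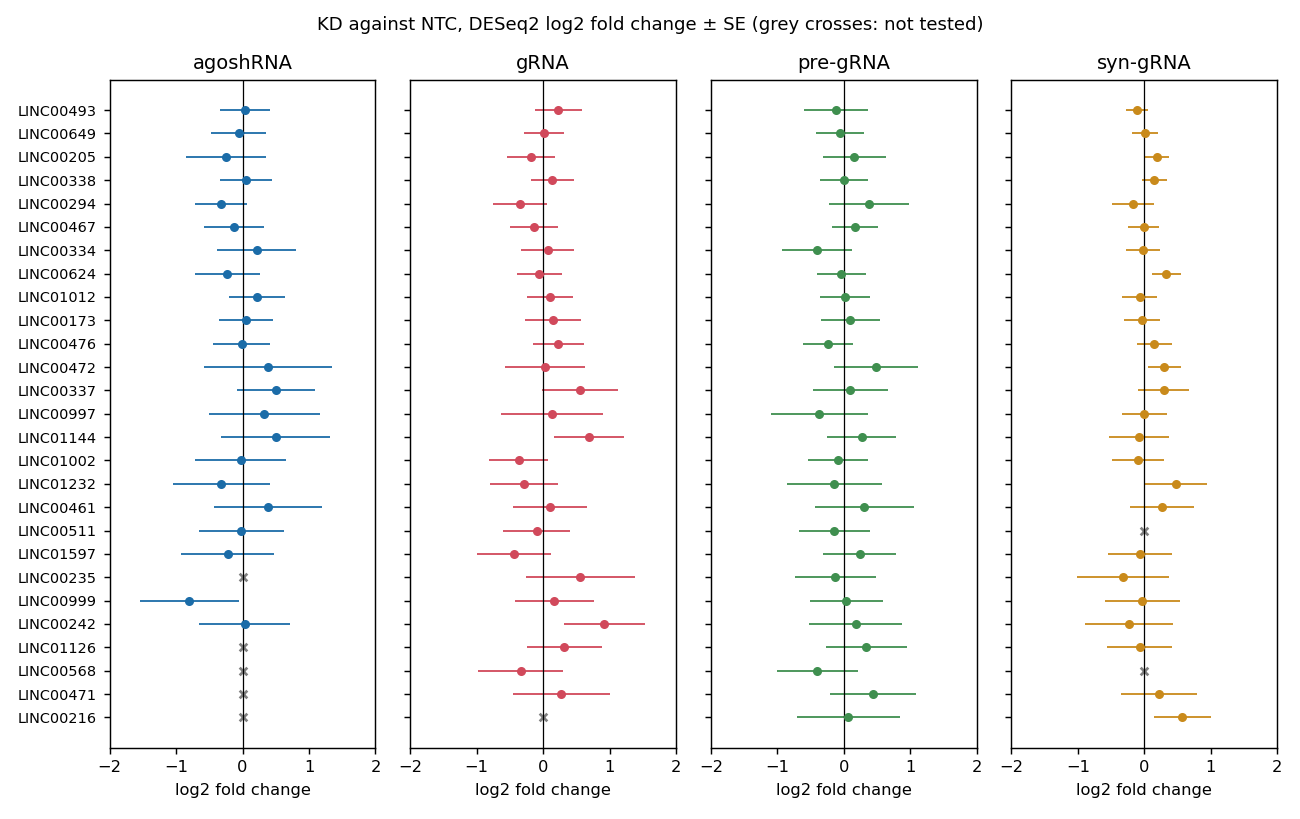
DESeq2 log2 fold change of KD against NTC for the 27 LINC genes in each setup, with bars of 1 SE and grey crosses at 0 for genes that did not pass the count filter. Values lie between -0.80 and 0.92, and 0 genes had an adjusted p-value under 0.05.

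Whether the KD effect differed between setups was tested for the 6 pairs of setups in 1 DESeq2 model of the 24 libraries. Of 27 LINC genes tested, 0 were called in each pair and 0 had an unadjusted p under 0.05. Over all 20172 genes tested, 0% were called in each pair, and the shares at an unadjusted p under 0.05 were 0.149% (agoshRNA against gRNA), 0.154% (agoshRNA against pre-gRNA), 0.144% (agoshRNA against syn-gRNA), 0.178% (gRNA against pre-gRNA), 0.223% (gRNA against syn-gRNA) and 0.144% (pre-gRNA against syn-gRNA). edgeR and limma-voom also called 0 LINC genes. The smallest p-value of a LINC gene in DESeq2 was 0.126, in gRNA against syn-gRNA.

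The NTC groups of the setups were then compared with each other, which asks how far the setups differed without the targeting guide. What part delivery or the handling of the libraries had in these differences was not tested. The pairs share groups, since each NTC group enters 3 of them. No LINC gene was called in any of the 6 pairs in DESeq2, edgeR or limma-voom. Of all genes tested, DESeq2 called 0.0496% (agoshRNA against gRNA), 0.0347% (agoshRNA against pre-gRNA), 1.84% (agoshRNA against syn-gRNA), 0% (gRNA against pre-gRNA), 1.32% (gRNA against syn-gRNA) and 3.25% (pre-gRNA against syn-gRNA). At an unadjusted p under 0.05 the number of LINC genes was 1, 0, 5, 0, 1 and 3 of 27 in the same order, and the shares over all genes were 1.83%, 2.81%, 12.4%, 0.516%, 11.8% and 17.8%. Groups did not overlap for 1, 1, 5, 0, 7 and 5 LINC genes, and for 6.02%, 3.11%, 18.9%, 3.9%, 29.8% and 29% of all genes.

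Comparisons with agoshRNA NTC had LINC medians below 0. The median log2 difference was -0.25 against gRNA NTC, -0.17 against pre-gRNA NTC and -0.18 against syn-gRNA NTC, with 8, 10 and 10 of 27 genes higher in agoshRNA, while the medians over all genes were -0.01, -0.03 and -0.01. In the KD arms the LINC medians were -0.29, -0.20 and -0.23. For the 3 pairs without agoshRNA the NTC medians were 0.01, 0.03 and 0.03.

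LINC00294 had the smallest p-value between NTC groups. Its levels were 23.98, 16.71 and 24.74 CPM in gRNA NTC A, B and C and 12.35, 4.79 and 4.74 CPM in syn-gRNA NTC. The groups did not overlap, and the log2 difference was 1.45 (SE 0.47, p = 0.00212 and adjusted p = 0.0909 in DESeq2, exact permutation p = 0.1). In the KD arms it was 1.26 (SE 0.48, adjusted p = 0.166), with 9.30, 15.11 and 24.36 CPM in gRNA KD and 7.99, 5.52 and 5.73 CPM in syn-gRNA KD. Over the alternatives of the NTC comparison the adjusted p-value fell under 0.05 with only the 6 libraries of the pair, and also without syn-gRNA NTC A, pre-gRNA NTC B or pre-gRNA KD B. Reads of unspliced TCP11L1 RNA over this gene, and reads of CSTF3 over the bases they share, cannot be told apart from its own.

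LINC00472 and LINC00216 went the other way, highest in the syn-gRNA setup. LINC00472 had 6.21 ± 1.23 CPM (SD, n = 3) in syn-gRNA NTC and 7.68 ± 0.79 CPM in KD, against 2.10 ± 1.46 CPM in pre-gRNA NTC and 2.94 ± 1.67 CPM in KD. The log2 difference of pre-gRNA NTC from syn-gRNA NTC was -1.68 (SE 0.72, adjusted p = 0.177 in DESeq2, exact permutation p = 0.1). LINC00216 had 1.28 ± 0.38 CPM in syn-gRNA NTC and 1.92 ± 0.19 CPM in KD, and at most 0.67 ± 0.42 CPM in the other NTC groups. Its NTC differences were -1.71 (SE 0.69) for agoshRNA and -1.43 (SE 0.66) for pre-gRNA against syn-gRNA, with adjusted p = 0.208 and 0.226 in DESeq2. In the KD arms, gRNA against syn-gRNA gave -2.55 (SE 0.70, adjusted p = 0.0264 in DESeq2, exact permutation p = 0.1). This was the only call of a LINC gene in the KD arms, on 1 to 28 counts per library. Counts were 3 to 8 in gRNA KD and 21 to 28 in syn-gRNA KD. In the NTC arm the same pair gave -1.09 (SE 0.65, exact permutation p = 0.2), was not called, and its groups overlapped. The share of all genes called in the KD arms of this pair is not given here.

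LINC00476 also had its highest group means in syn-gRNA, with 4.83, 4.94 and 5.33 CPM in NTC and 4.97, 5.44 and 6.46 CPM in KD. In the NTC arm its pre-gRNA libraries, at 4.81 ± 0.75 CPM (SD, n = 3) and up to 5.67 CPM, overlapped those of syn-gRNA. There its log2 difference of pre-gRNA from syn-gRNA was -0.10 (SE 0.25). Its agoshRNA libraries lay at 4.56, 3.02 and 2.68 CPM in NTC and 4.44, 2.88 and 2.65 CPM in KD. No agoshRNA library reached a syn-gRNA library of the same arm, and the NTC difference was -0.58 (SE 0.26, adjusted p = 0.28 in DESeq2, exact permutation p = 0.1). The remaining LINC genes with an unadjusted p under 0.05 were LINC01012, LINC00173 and LINC01126, named after their values were seen. LINC01012 was lower in agoshRNA NTC than in gRNA NTC by a log2 difference of -0.54 (SE 0.25) and than in syn-gRNA NTC by -0.56 (SE 0.25). LINC00173 gave -0.76 (SE 0.31) for pre-gRNA against syn-gRNA, and LINC01126 -1.03 (SE 0.49) for agoshRNA against syn-gRNA. None of these differences was called in DESeq2, and the groups overlapped in each. The exact permutation p-value was 0.3 for both LINC01012 differences and 0.2 for LINC00173.

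**Figure D3:**
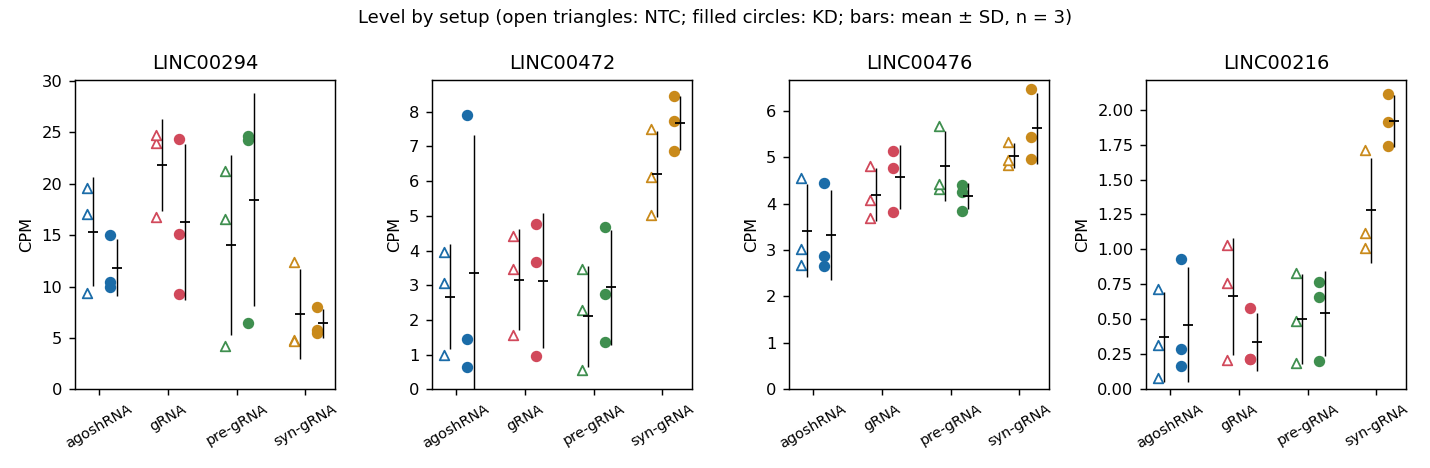
Level in CPM of 4 LINC genes by setup, with open triangles for NTC libraries, filled circles for KD libraries and bars for the mean ± SD (n = 3). By group mean, LINC00294 is lowest and LINC00472, LINC00476 and LINC00216 are highest in the syn-gRNA setup in both arms. For LINC00476 the pre-gRNA NTC libraries overlap those of syn-gRNA NTC.

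The spread within groups was compared with that of other genes. On the log2(CPM + 0.5) scale, the SD pooled over the 8 groups had a median of 0.46 over the 27 LINC genes, with a range from 0.20 to 0.86, against 0.45 for all genes averaging at least 10 counts. These sets were not matched for depth: the median gene averaged 29.9 counts among the LINC genes and 226.4 among all genes. The part of depth in this comparison was not tested. By setup, the median SD was 0.56 in agoshRNA, 0.37 in gRNA, 0.43 in pre-gRNA and 0.23 in syn-gRNA, and for all genes it was 0.56, 0.41, 0.46 and 0.20. For 6 LINC genes the pooled SD was more than 3 times the SD that counting error alone gives, and for 5 it was at or under it. The counting SD was taken on log2 counts without the added 0.5, which shrinks differences at low levels. The pooled and counting SDs are therefore on unlike scales for the rarest genes. The 5 genes cannot be read as lying within counting error. Low counts limit what can be seen in the rarest genes.

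LINC00472 had the widest spread of the 12 LINC genes averaging at least 50 counts, with a pooled SD of 0.86. Its levels were 0.66, 7.91 and 1.46 CPM in agoshRNA KD A, B and C and 0.99, 3.95 and 3.08 CPM in NTC. Library B was highest in both arms. LINC00294 followed with an SD of 0.71 and LINC00205 with 0.62. LINC00205 had 31.18, 16.39 and 7.88 CPM in agoshRNA KD and 37.23, 16.83 and 13.06 CPM in NTC, and 35.97, 14.37 and 29.63 CPM in pre-gRNA KD and 34.19, 10.65 and 26.01 CPM in NTC. In agoshRNA it was lowest in C and in pre-gRNA lowest in B, in both arms. The steadiest were LINC00649 with an SD of 0.20, LINC00476 with 0.22 and LINC00338 with 0.24. LINC00649 had 39.92, 37.42 and 36.26 CPM in gRNA NTC and 33.57, 38.14 and 37.51 CPM in pre-gRNA NTC.

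KD and NTC libraries of the same setup and letter deviated together. For all 27 LINC genes the mean difference between letters was larger than that between arms of the same letter, as it was for 98.4% of all genes averaging at least 10 counts. The median r between the KD and NTC deviations of the same letter, over 12 library pairs, was 0.72 for LINC genes and 0.86 for all genes. It ranged from 0.24 for LINC01012 to 0.96 for LINC00493, and 25 of the 27 values were above 0.5. What the letters stand for is not given in the sources used here, and the same letter did not rank alike across setups.

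The library differences were also set beside those of MALAT1, an abundant nuclear long non-coding RNA. The MALAT1 level ran from 81.2 CPM in agoshRNA KD A to 2994.6 CPM in syn-gRNA KD C. Pearson's r with MALAT1, between deviations from the group means over the 24 libraries, was above 0.5 for 4 LINC genes (LINC00472 at 0.86, LINC00216 at 0.67, LINC00997 at 0.65 and LINC00649 at 0.59). It was below -0.5 for 9, among them LINC00337 at -0.82, LINC00568 at -0.81 and LINC01144 at -0.80. It lay between those limits for the other 14 LINC genes. Of all genes averaging at least 10 counts, 32.2% were above 0.5 and 40.3% below -0.5. Exonic GC content ranged from 34.9% to 51.1% in the first group and from 47.4% to 61.7% in the second, and Spearman's rho between GC content and r with MALAT1 was -0.62 across 26 LINC genes. These values describe genes measured in the same libraries, and their part in the differences between setups was not tested.

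Other long non-coding RNAs were set beside the LINC genes from a list of 20, of which 18 were present as rows and tested. In KD against NTC, 0 of 18 were called in each setup. Between NTC groups, 0, 0, 1, 0, 1 and 5 of 18 were called in the order of pairs given above. SNHG12, a small nucleolar RNA host gene, was lower in agoshRNA, gRNA and pre-gRNA NTC than in syn-gRNA NTC, with log2 differences of -1.48, -1.47 and -1.24. In pre-gRNA against syn-gRNA, GAS5 at -1.17, SNHG1 at -1.95, NEAT1 at -1.78 and LINC-PINT at -1.83 were called as well in DESeq2. The calls between NTC groups given here are those of DESeq2. In gRNA against syn-gRNA, edgeR and limma-voom called no gene at all, as described further below. The list median was -0.54, -0.56 and -0.88 in the 3 pairs with syn-gRNA, and the LINC medians in these pairs were -0.18, 0.03 and 0.03.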

How the data were processed

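Gene counts of 24 libraries were used. Per the submitters' processing notes, reads were trimmed with Trim Galore, aligned to hg19 with STAR 2.7.3a and counted with featureCounts, and DESeq2 was run. The deposited counts are whole reads per gene and were identical in the 4 tables. The log2 fold change and p-value columns were made by the authors, and 24 further columns per table, holding normalized counts, were left unused. CPM are counts divided by the library total.

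Within a setup, its 6 libraries were fitted with DESeq2 1.42.0 in R 4.3.3 across all genes that reached 10 counts in 3 or more libraries, and a gene was called at a Benjamini-Hochberg adjusted p-value below 0.05. NTC groups and differences of KD effects were tested in 1 DESeq2 model of the 24 libraries with 1 coefficient per group. Alternatives were edgeR 4.0.16, limma-voom (limma 3.58.1), TMM factors, other filters, the column letter as a replicate block and other sets of libraries. The labels' replicate numbers are not linked to the letters. The letters were taken as pairs from the data: across 18154 genes, the KD and NTC deviations from the group means correlated with r of 0.31 to 0.96 in the 12 same-letter pairs. Scripts were tested on simulated data.

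The genes and lists were chosen with earlier results of these data known. Named genes follow a rule: the 8 most abundant, the 2 highest and 2 lowest KD log2 fold changes per setup, called genes, the 3 largest and 3 smallest spreads among means of at least 50 counts, those at the limit of 10 counts, and list members. Positions are hg19, as deposited. Gene types, exons and GC content came from GENCODE release 29 (GRCh38), matched by gene ID, and overlaps with coding genes were taken from the deposited hg19 positions. Promoters and microRNAs came from RefSeq. Spread used log2(CPM + 0.5).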

Additional observations from a re-analysis of the deposited data

How the results depend on the processing

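A paired fit of KD against NTC, with the column letter as a replicate block, called 0 LINC genes in each setup, as did each other alternative of KD against NTC. At an unadjusted p under 0.05 in DESeq2 it held 2 LINC genes in pre-gRNA, against 0 without the block, and 0 in the other setups. The share of all genes at that threshold in the paired fit is not given here, so nothing is read from the 2 genes. Over all genes the paired fit called 0, 0, 0 and 1 in agoshRNA, gRNA, pre-gRNA and syn-gRNA. The block within setups called 0 LINC genes in each difference of KD effects. The number called between NTC groups rose from 0 to 1 in gRNA against syn-gRNA with the KD libraries in place of NTC (LINC00216) and with only the 6 libraries of the pair (LINC00294). It also rose from 0 to 1 in pre-gRNA against syn-gRNA with only the 6 libraries of the pair (LINC00472, log2 difference -1.68). Leaving out each library in turn gave 0 to 1 LINC genes in gRNA against syn-gRNA, and 0 in each other comparison. That gene was LINC00294, called without syn-gRNA NTC A (log2 difference 2.01), pre-gRNA NTC B or pre-gRNA KD B (1.45 in both). Leaving out libraries beyond the groups compared was chosen after seeing the data, as were leaving out libraries, TMM factors and no independent filtering in the differences of KD effects.

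Leaving out 1 library turned the sign of 5 KD log2 fold changes, none of them called: LINC01144 in agoshRNA (-0.36 without KD A, range to 1.23), LINC00472 in pre-gRNA (-0.01 without KD C, range to 1.04), LINC00334 in pre-gRNA (0.07 without NTC B, range to -0.90), LINC00235 in syn-gRNA (0.17 without KD A, range to -0.69) and LINC00242 in syn-gRNA (0.02 without KD B, range to -0.52). The median pooled SD moved from 0.46 to 0.274 on the log2(CPM + 2) scale, which shrinks differences at low levels by its construction.

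The counts of all genes called between NTC groups depended on the tool. In the pairs of agoshRNA, gRNA and pre-gRNA with syn-gRNA they were 371, 266 and 656 in DESeq2, 16, 0 and 149 in edgeR, 16, 0 and 164 in limma-voom, and 362, 1018 and 1319 with only the 6 libraries of a pair. Leaving out 1 library gave 43 to 488, 18 to 443 and 104 to 970. In agoshRNA against gRNA and against pre-gRNA they were 10 and 7 in DESeq2 and 3 and 2 in edgeR and limma-voom. With KD libraries in place of NTC agoshRNA against syn-gRNA gave 634, and with KD and NTC counts of a letter added up agoshRNA against pre-gRNA gave 15. The cause was not tested. With 3 libraries per group and means under 20 counts in 10 of the 27 genes, even differences well above the standard errors could go uncalled. That of LINC00294 in gRNA against syn-gRNA NTC, 1.45 with an SE of 0.47, was not called in the main DESeq2 fit.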

Other observations

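LINC genes also moved with each other across the 24 libraries, on the log2(CPM + 0.5) scale after the group means were taken off. The highest Pearson's r was 0.91, between LINC00205 on chromosome 21 and LINC01232 on chromosome 13. LINC01144 had r = 0.90 with LINC00568 on the same chromosome and with LINC00476 on another. The lowest r was -0.83, between LINC00467 and LINC00334, followed by -0.82 between LINC00493 and LINC00461. LINC00472 and LINC00216, both highest in the syn-gRNA setup, had r = 0.83. These are the extremes of all pairs of the 27 genes, chosen after their values were seen. The libraries share their depth and composition, so the values carry no test.

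The 6 genes with a single exon had a median pooled SD of 0.64, and the 21 with more than 1 exon had 0.44. Both ranges were wide, from 0.34 to 0.85 and from 0.20 to 0.86. Apart from LINC00294, the single-exon genes averaged 10.5 to 29.9 counts. Counting error alone gave them SDs of 0.33 to 0.65 on log2 counts without the added 0.5, a scale unlike that of the pooled SD. Low means occurred among the genes with more exons as well, and the part of depth in this contrast was not tested.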
